A study of Dichomitus squalens with 16 samples.

Results

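The course of transcript levels with time was compared between cultures of Dichomitus squalens on spruce wood and on aspen wood. For each gene, the change from day 9 to day 16 on spruce was set against the same change on aspen, as a difference of log2 changes. The comparison used the 8 wood libraries of the 16 in the series. Of 11410 genes with reads, 10510 had enough reads in the wood libraries to be tested, and the 967 whose difference passed the test are described here. All cultures were the strain LYAD-421 SS1. Mycelium grown beforehand in liquid culture was added to low-nitrogen medium with asparagine, succinate and glycerol, to which sawdust of Norway spruce (Picea abies) or of aspen (Populus tremula) was added. Each of the 4 groups (spruce at day 9, spruce at day 16, aspen at day 9, aspen at day 16) has 2 libraries. The glycerol, the nitrogen source and the inoculum were common to all 4 groups. The labels do not say that the libraries of a group came from separate cultures, so the p-values measure the spread between these libraries, which may be technical. In such bulk samples fewer cells that express a gene and less of its transcript per cell cannot be told apart. Levels and changes are relative to the reads of each library, so a change in the total amount of RNA is not seen.

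White-rot fungi such as D. squalens break down all the polymers of wood. Cellulose is opened by endoglucanases, shortened from chain ends by cellobiohydrolases and cut oxidatively by lytic polysaccharide monooxygenases, for which cellobiose dehydrogenase can supply electrons. Lignin is oxidised by manganese peroxidases and related heme peroxidases of class II, with hydrogen peroxide made by alcohol, glyoxal and other oxidases, and by laccases. Spruce is a softwood whose main hemicellulose is galactoglucomannan. Aspen is a hardwood whose main hemicellulose is glucuronoxylan.

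The wood libraries held 8355203 ± 225709 unique reads (mean ± SD, n = 8). Across genes, which are not independent replicates, Pearson's r between the pair of libraries of a group was between 0.984 and 0.993 on a log scale. The spread between the 2 libraries of a group, as chi-square per degree of freedom, was 30.7 for aspen and 28.1 for spruce at day 9, and 11.9 for aspen and 4.21 for spruce at day 16. Levels are given as RPKM, reads scaled to gene length and library total, in the order replicate 1, replicate 2. RPKM lacks the further scaling between libraries (TMM) that the test uses. Its factors were 0.937 and 0.874 for aspen at day 9 and 0.989 to 1.062 in the other groups. Aspen levels at day 9 therefore stand lower against the other groups in RPKM than in the test. Statements that libraries lay above others or overlapped rest on RPKM. Changes and their standard errors are log2 values from edgeR's quasi-likelihood test on the reads, and a gene is called where its Benjamini-Hochberg adjusted p over the 10510 genes is below 0.05. A difference called higher means that the change from day 9 to day 16 was more upward, or less downward, on spruce than on aspen. Gene names are the descriptions in the deposited files.

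Transcript levels moved further between the days on aspen than on spruce. On aspen 6063 genes were called between day 16 and day 9 (57.7% of those tested), 2979 up and 3084 down, and on spruce 4538 (43.2%), 2218 up and 2320 down. The median absolute change was 0.57 on aspen and 0.42 on spruce, and 7020 genes (66.8%) had the larger absolute change on aspen. The day changes had the same sign on both woods in 8584 genes (81.7%), and their Pearson correlation across genes was 0.80, given as a description. The plot of both changes shows this agreement in direction and the genes that leave the line of equal change.

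**Figure D1:**
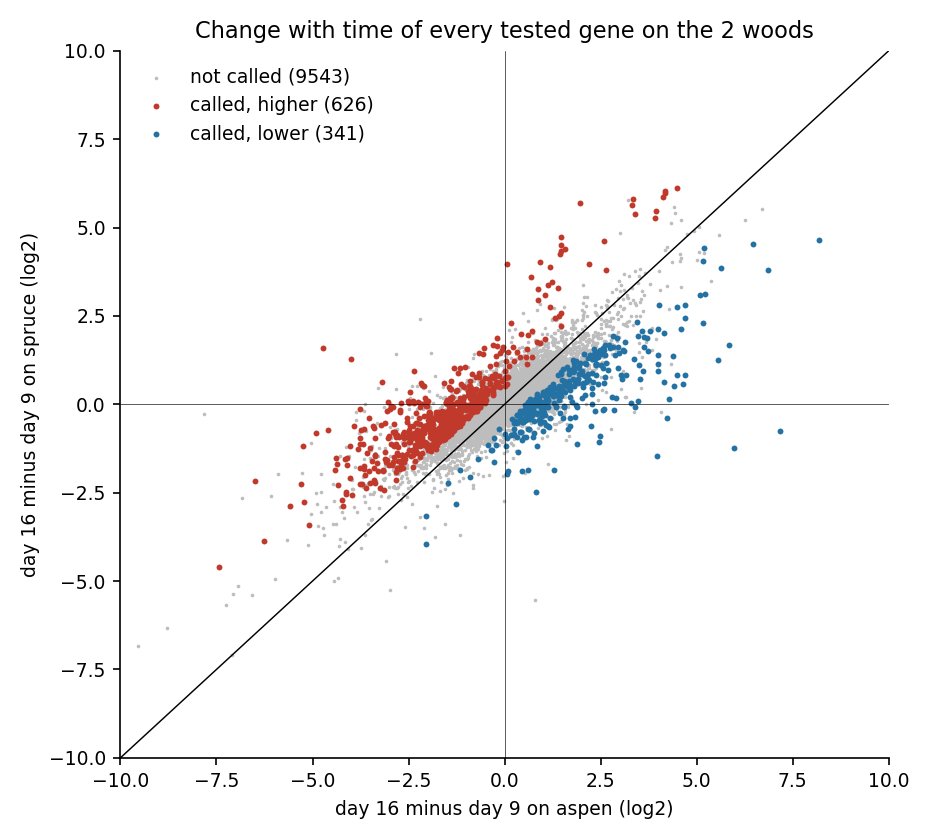
Log2 change from day 9 to day 16 on aspen (x axis) and on spruce (y axis) of the 10510 tested genes. Grey points were not called, the 626 red points were called higher and the 341 blue points lower, and the line marks equal change. Most red points lie left of zero on the aspen axis and most blue points right of it.

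The difference between the woods was called in 967 genes (9.2% of those tested), 626 of them higher (5.96%) and 341 lower (3.24%). Of these, 567 differed at least 2-fold (5.39%), 368 higher and 199 lower, and 154 at least 4-fold. The shares of all tested genes that were called are the background for the counts of list members below. An unadjusted p below 0.05 was reached by 2644 genes. The number of calls depended on single libraries. It was 335 without spruce day 16 replicate 2, 402 without aspen day 16 replicate 2 and 420 without spruce day 16 replicate 1, and 662 to 1083 without any other. With library totals alone as the scaling, 996 genes were called and the share of calls that were higher fell from 64.7% to 44.4%, with the median of all genes at -0.14 in place of 0.01. A fit on all 16 libraries of the series called 2013 genes. The alternatives counted here are 18 in all, 10 that keep every wood library and 8 that leave out 1.

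In 474 of the 567 genes called at least 2-fold, the steeper course was that on aspen, as it was in 66.8% of all tested genes. Of the 368 higher genes, 303 had the larger change on aspen, with a median change of -1.95 on aspen and -0.36 on spruce. Among them, 157 fell on both woods and 130 fell on aspen with no call on spruce, 32 rose on both, 25 rose on spruce and fell on aspen, and 24 rose on spruce with no call on aspen. Of the 199 lower genes, 171 had the larger change on aspen, with medians of 2.03 on aspen and 0.35 on spruce. Of these 199 genes, 87 rose on both woods, 78 rose on aspen with no call on spruce, 17 fell on spruce with no call on aspen, 13 fell on spruce and rose on aspen, and 4 fell on both. The genes that rose on both woods, but further on spruce, numbered 32 of the 368, and the 4 cellobiohydrolases and 3 lytic polysaccharide monooxygenases lay in it.

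The woods themselves were compared at each day with the same libraries. Spruce differed from aspen in 1138 genes at day 9 (10.8%) and in 1420 at day 16 (13.5%). Of the 368 higher genes, 144 were higher on spruce than on aspen at day 16 with no call at day 9, 123 were lower on spruce at day 9 with no call at day 16, and 72 changed from lower to higher. Of the 199 lower genes, 97 were lower on spruce at day 16 only, 47 were higher on spruce at day 9 only, and 38 changed from higher to lower.

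The cellobiohydrolases, the lytic polysaccharide monooxygenases and the cellobiose dehydrogenase rose on both woods and further on spruce. All 4 cellobiohydrolases were called higher, with a median difference of 1.86 against 0.01 over all tested genes. Their median change was 4.95 on spruce and 2.76 on aspen. Summed over the list, the level was 26.1 and 29.1 RPKM at day 9 and 912 and 1067 at day 16 on spruce. On aspen the sums were 12.1 and 11.9 at day 9 and 141 and 94.7 at day 16. The day 16 spruce libraries lay above all others, and even at day 9 the spruce libraries lay above the aspen ones. The difference was widest for a cellobiohydrolase I (DICSQDRAFT_131122), an enzyme that releases cellobiose from the reducing ends of cellulose chains. The KEGG term of this gene is endoglucanase, unlike its description. It stood at 10.5 and 12.4 RPKM at day 9 and 159 and 213 at day 16 on spruce. The aspen libraries held 4.27 and 5.29 at day 9 and 12 and 8.13 at day 16. Its change was 4.03 ± 0.22 on spruce and 0.92 ± 0.24 on aspen, a difference of 3.11 ± 0.33, adjusted p = 0.00118, and the day 16 spruce libraries did not overlap with any other.

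Cellobiohydrolase II (DICSQDRAFT_152125), which works from the other end of the chain, stood at 5.76 and 7.12 RPKM at day 9 and 394 and 437 at day 16 on spruce. Its aspen values were 3.06 and 3.2 at day 9 and 75.7 and 50.1 at day 16 (difference 1.84 ± 0.30, adjusted p = 0.0065). It was the most abundant of the list on spruce at day 16. A second cellobiohydrolase I (DICSQDRAFT_96488) stood at 5.44 and 6.69 RPKM at day 9 and 323 and 384 at day 16 on spruce. On aspen the values were 2.08 and 1.89 at day 9 and 46 and 31.1 at day 16 (difference 1.74 ± 0.30, adjusted p = 0.00793). The third (DICSQDRAFT_100956) was less abundant at day 16, with 4.38 and 2.81 RPKM at day 9 and 35.8 and 33.5 at day 16 on spruce. Values of the aspen libraries were 2.68 and 1.51 at day 9 and 6.85 and 5.33 at day 16 (difference 1.88 ± 0.37, adjusted p = 0.0133). In all 4 genes both day 16 spruce libraries lay above both day 16 aspen libraries, which was not counted over all genes. The call of the third was lost when aspen day 9 replicate 1, aspen day 16 replicate 2 or spruce day 16 replicate 1 was left out (adjusted p = 0.0688, 0.0594 and 0.0544), and with limma on log2(RPKM + 0.1) (adjusted p = 0.0566).

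**Figure D2:**
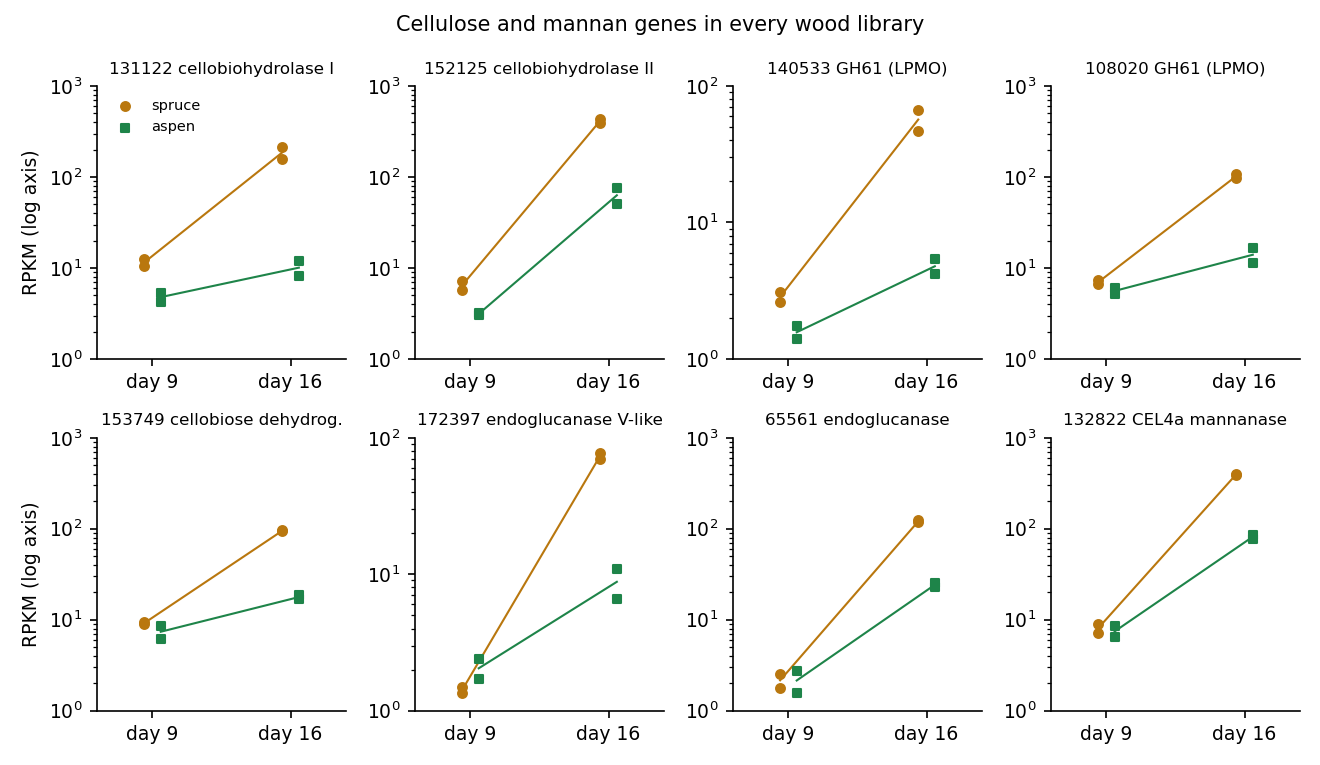
RPKM (log axis) at day 9 and day 16 of 8 genes of cellulose and mannan breakdown, with 1 point per library, circles for spruce and squares for aspen, and lines through the group means. In each panel both spruce libraries at day 16 lie above both aspen libraries at day 16, and the gap between the woods is narrower at day 9.

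The 3 lytic polysaccharide monooxygenases, described in the files as glycoside hydrolase family 61 proteins, were all called higher (median 2.71). DICSQDRAFT_140533 stood at 3.08 and 2.62 RPKM at day 9 and 46.8 and 66.7 at day 16 on spruce. The values on aspen were 1.74 and 1.4 at day 9 and 5.38 and 4.17 at day 16 (difference 2.87 ± 0.37, adjusted p = 0.00186). DICSQDRAFT_108020 stood at 6.64 and 7.28 RPKM at day 9 and 97.5 and 107 at day 16 on spruce. Aspen libraries had 6.04 and 5.13 at day 9 and 16.5 and 11.5 at day 16 (difference 2.71 ± 0.23, adjusted p = 0.000316). Both genes rose steeply on spruce and less on aspen. The most abundant member at day 16, DICSQDRAFT_166212, stood at 6.37 and 4.66 RPKM at day 9 and 195 and 227 at day 16 on spruce. Levels on aspen were 1.61 and 1.54 at day 9 and 29.2 and 23.7 at day 16 (difference 1.35 ± 0.35, adjusted p = 0.0382). Its call was lost when aspen day 9 replicate 1, aspen day 9 replicate 2, aspen day 16 replicate 2, spruce day 9 replicate 2, spruce day 16 replicate 1 or spruce day 16 replicate 2 was left out (adjusted p = 0.104, 0.149, 0.0945, 0.0719, 0.0675 and 0.117), and with library totals alone (0.067) or voom (0.0913). The cellobiose dehydrogenase gene (DICSQDRAFT_153749), whose product oxidises cellobiose and can pass the electrons to these monooxygenases, stood at 9.35 and 8.97 RPKM at day 9 and 96 and 94.1 at day 16 on spruce. In the aspen cultures it had 8.62 and 6.12 at day 9 and 18.5 and 16.9 at day 16 (difference 2.26 ± 0.19, adjusted p = 0.000273). The libraries of a group lay close together and the spruce day 16 pair stood clear of the rest.

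Of 12 endoglucanases, which cut inside cellulose chains, 5 were called higher and none lower (median 0.90). An endoglucanase V-like gene (DICSQDRAFT_172397) had the widest difference of the list, at 1.49 and 1.34 RPKM at day 9 and 70.2 and 77.7 at day 16 on spruce. In aspen libraries the values were 2.38 and 1.71 at day 9 and 11 and 6.61 at day 16 (difference 3.74 ± 0.51, adjusted p = 0.00254). An endoglucanase (DICSQDRAFT_65561) stood at 1.78 and 2.53 RPKM at day 9 and 124 and 117 at day 16 on spruce. On the other wood, aspen, it had 1.57 and 2.72 at day 9 and 25.3 and 23.1 at day 16 (difference 2.48 ± 0.35, adjusted p = 0.00279). Both genes were at like low levels on the woods at day 9 and stood apart by day 16. Another endoglucanase (DICSQDRAFT_134446) went from 2.33 to 97.2 RPKM on spruce and from 1.57 to 18.2 on aspen (difference 2.0 ± 0.25, adjusted p = 0.00173), and an endocellulase (DICSQDRAFT_111120) from 2.91 to 27.6 RPKM on spruce and from 2.55 to 5.22 on aspen (difference 2.37 ± 0.38, adjusted p = 0.0048). The fifth, a barwin-like endoglucanase (DICSQDRAFT_47249), was far more abundant, from 2451 to 5194 RPKM on spruce and from 2709.9 to 3267 on aspen, and its difference was smaller (difference 0.98 ± 0.24, adjusted p = 0.0338). That call was lost under 8 of the 18 alternatives, 5 of which left out 1 library, with an adjusted p of up to 0.132. The other 2 barwin-like members had differences of 0.18 and -0.43 that were not called. A glycoside hydrolase family 12 gene (DICSQDRAFT_125489) had a difference of 1.82 ± 0.61, adjusted p = 0.111, and an endo-beta-1,4-glucanase (DICSQDRAFT_137247) of 0.80 ± 0.33, adjusted p = 0.167; neither was called. The former was called by DESeq2, on all 16 libraries, with limma on log2(RPKM + 1) and without aspen day 16 replicate 1 (adjusted p from 0.00671 to 0.434 over 18 alternatives). Of 6 beta-glucosidases, which split cellobiose to glucose, 2 were called higher (DICSQDRAFT_149400 at 0.82 ± 0.22, adjusted p = 0.0484 and DICSQDRAFT_176390 at 0.81 ± 0.21, adjusted p = 0.0431), and these calls were lost under 11 and 10 of the 18 alternatives.

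Among 47 tested genes described only as glycoside hydrolase, with no family, 4 were called higher and 1 lower (median 0.11). This share of 10.6% lies near the 9.2% of all genes. DICSQDRAFT_50737 had the widest difference, with 22.6 and 20.7 RPKM at day 9 and 483 and 485 at day 16 on spruce. Aspen gave 19.7 and 14.5 at day 9 and 65.4 and 38.4 at day 16 (difference 3.04 ± 0.32, adjusted p = 0.00141). Its spruce libraries at day 16 lay far above all others, as those of the cellobiohydrolases did. DICSQDRAFT_79806 rose from 58.3 to 391 RPKM on spruce and from 40.4 to 101 on aspen (difference 1.57 ± 0.24, adjusted p = 0.0044), and DICSQDRAFT_145226 from 6.74 to 104 RPKM on spruce and from 5.19 to 26.4 on aspen (difference 1.76 ± 0.24, adjusted p = 0.00259), in both cases further on spruce. By their KEGG terms these 3 are an endoglucanase, an alpha-galactosidase and an alpha-N-arabinofuranosidase, in that order. The one called lower (DICSQDRAFT_60916) rose from 2.49 to 9.2 RPKM on spruce and from 1.55 to 21.1 on aspen (difference -1.72 ± 0.43, adjusted p = 0.0341), and its call was lost in 6 of the 18 alternatives, 5 of which left out 1 library (adjusted p of up to 0.122). An alpha-glucosidase (DICSQDRAFT_110931), which frees glucose from starch and its fragments, was the only one of 11 amylases called (9.09%, against 9.2% of all genes). It rose further on aspen, from 20.4 to 85.1 RPKM on spruce and from 13.1 to 199 on aspen (difference -1.71 ± 0.35, adjusted p = 0.0243), and its call was lost when aspen day 16 replicate 2, spruce day 9 replicate 1, spruce day 16 replicate 1 or spruce day 16 replicate 2 was left out (adjusted p = 0.0564, 0.0696, 0.0753 and 0.108). A cerato-platanin-domain gene (DICSQDRAFT_103680), a small secreted fungal protein, was called higher among 11 expansins and cerato-platanins beside the barwin-like gene. It rose on spruce with no call on aspen, from 15.4 to 60.3 RPKM on spruce and from 25.8 to 38.4 on aspen (difference 1.55 ± 0.36, adjusted p = 0.0375), and lost its call in 8 of the 18 alternatives, 5 of which left out 1 library (adjusted p of up to 0.134).

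The hemicellulose enzymes were divided. The CEL4a mannanase (DICSQDRAFT_132822), which cuts the mannan backbone, stood at 7.06 and 9.04 RPKM at day 9 and 402 and 390.2 at day 16 on spruce. On aspen it stood at 8.51 and 6.37 at day 9 and 85.2 and 78 at day 16 (difference 2.32 ± 0.21, adjusted p = 0.00037). It rose on both woods, from a like level at day 9, and ended higher in both spruce libraries. An oligoxyloglucan reducing end-specific cellobiohydrolase (DICSQDRAFT_130877), which acts on xyloglucan and not on cellulose, stood at 5.44 and 5.01 RPKM at day 9 and 109 and 109.9 at day 16 on spruce. The aspen libraries held 3.73 and 4.2 at day 9 and 14.4 and 11.6 at day 16 (difference 2.84 ± 0.19, adjusted p = 0.000156). A second gene of that name (DICSQDRAFT_183908) had a difference of 0.10 ± 0.16, adjusted p = 0.757 and was not called. The arabinogalactan endo-1,4-beta-galactosidase (DICSQDRAFT_154752), which cuts galactan side chains, stood at 8.36 and 6.7 RPKM at day 9 and 336 and 326 at day 16 on spruce. Its aspen values were 8.07 and 7.53 at day 9 and 157 and 109 at day 16 (difference 1.53 ± 0.26, adjusted p = 0.00633). An alpha-galactosidase (DICSQDRAFT_75292) rose on aspen with no call on spruce, from 51 to 61.4 RPKM on spruce and from 30.9 to 68.2 on aspen (difference -0.72 ± 0.15, adjusted p = 0.0147), and its call was lost when aspen day 16 replicate 2, spruce day 16 replicate 1 or spruce day 16 replicate 2 was left out (adjusted p = 0.0579, 0.0809 and 0.0673).

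Among 14 genes listed as xylanases and xylan side-chain enzymes, 4 were called higher and 1 lower (median 0.58), and 1 of the 4 was the galactan enzyme above, which the list's wording also takes in. Endo-1,4-beta-xylanase C (DICSQDRAFT_133555), which cuts the xylan backbone, stood at 2.35 and 1.68 RPKM at day 9 and 141 and 139.7 at day 16 on spruce. On aspen the values were 1.34 and 1.07 at day 9 and 29.9 and 29.9 at day 16 (difference 1.64 ± 0.23, adjusted p = 0.0029). A glycoside hydrolase family 43 gene (DICSQDRAFT_181663) stood at 2.47 and 2.63 RPKM at day 9 and 164 and 153 at day 16 on spruce. Values of the aspen libraries were 1.88 and 1.41 at day 9 and 34.6 and 30.9 at day 16 (difference 1.80 ± 0.25, adjusted p = 0.00266). The rise was steeper on spruce in both. Another gene of family 43 (DICSQDRAFT_57570) fell on both woods, from 63.8 to 11.9 RPKM on spruce and from 33.7 to 4.2 on aspen (difference 0.73 ± 0.20, adjusted p = 0.0496), and held its call in 2 of the 18 alternatives. A carbohydrate esterase (DICSQDRAFT_163177) rose on both woods, from 5.7 to 122 RPKM on spruce and from 2.67 to 108 on aspen, and was the one called lower (difference -0.76 ± 0.19, adjusted p = 0.034); its call was lost in 9 alternatives. A beta-xylosidase (DICSQDRAFT_158716) had a difference of 1.34 ± 0.44, adjusted p = 0.115 and was not called. It was called by DESeq2, on all 16 libraries, with the replicate block and without aspen day 16 replicate 1 (adjusted p from 0.00784 to 0.313 over 18 alternatives). The 7 pectinases, which cut pectin, rose on both woods without exception, with median changes of 3.02 on spruce and 3.22 on aspen. None of their differences was called (median 0.05), while 2 had an unadjusted p below 0.05 and DESeq2 called 1. The widest was that of endo-polygalacturonase PG1 (DICSQDRAFT_154984), at 2.56 ± 0.83, adjusted p = 0.107, with 0.707 and 1.66 RPKM at day 9 and 60.2 and 69.7 at day 16 on spruce. The values on aspen were 1.07 and 1.54 at day 9 and 18.6 and 8.68 at day 16. It was called by DESeq2, on all 16 libraries, with limma on log2(RPKM + 1) and without aspen day 16 replicate 1 (adjusted p from 0.00053 to 0.375 over 18 alternatives).

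**Figure D3:**
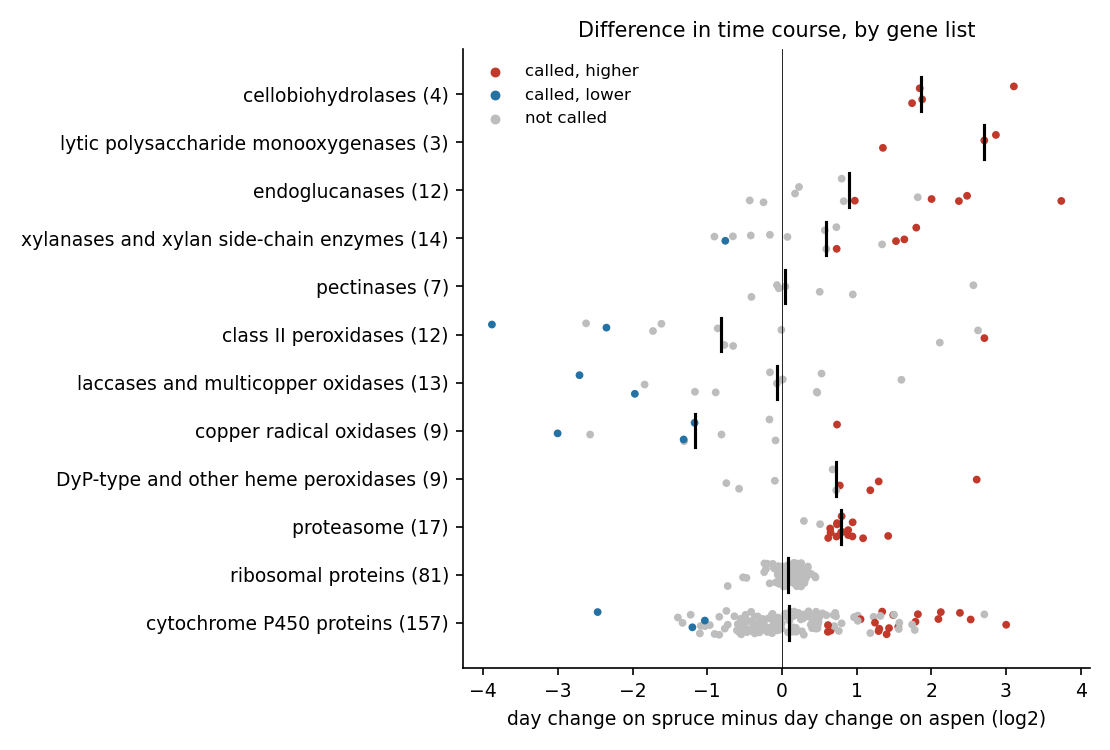
Difference between the woods in the log2 change from day 9 to day 16, with 1 point per tested gene of 12 lists (number tested in brackets), red for called higher, blue for called lower and grey for not called, and a black bar at the list median. All cellobiohydrolase and proteasome genes lie to the right of zero, ribosomal protein genes close to it, and peroxidases and copper radical oxidases spread to both sides.

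Genes of lignin oxidation did not move in one direction. Of 12 class II peroxidases, 1 was called higher and 2 lower (median -0.82). A manganese peroxidase (DICSQDRAFT_59877) stood at 103 and 124 RPKM at day 9 and 13.3 and 17.2 at day 16 on spruce. Aspen libraries had 428 and 721 at day 9 and 13.1 and 13.4 at day 16 (difference 2.71 ± 0.41, adjusted p = 0.0101). It was the most abundant of the list at day 9, higher in both aspen libraries than in both spruce libraries, and fell on both woods to about the same level. Its call was lost when aspen day 16 replicate 2 was left out (adjusted p = 0.0571). A manganese peroxidase isozyme precursor (DICSQDRAFT_141471) went the other way, at 5.94 and 9.91 RPKM at day 9 and 10.1 and 12.5 at day 16 on spruce. Levels on aspen were 3.56 and 2.35 at day 9 and 56.2 and 81.3 at day 16 (difference -3.88 ± 0.46, adjusted p = 0.00437). Both spruce libraries were higher at day 9, a gap that was not called (adjusted p = 0.0822). Both aspen libraries were higher at day 16, and the day change was called on aspen only. A lignin peroxidase (DICSQDRAFT_108150) stayed at low levels, with 3.7 and 4.88 RPKM at day 9 and 1 and 1.26 at day 16 on spruce. In the aspen cultures it had 1.91 and 2.26 at day 9 and 2.25 and 4.06 at day 16 (difference -2.35 ± 0.53, adjusted p = 0.0223), and its call was lost when aspen day 16 replicate 2, spruce day 16 replicate 1 or spruce day 16 replicate 2 was left out (adjusted p = 0.0891, 0.1 and 0.0829). The 9 members not called had differences of -2.62 to 2.63, and the mean of their highest group lay between 3.27 and 54.6 RPKM. Of these, the one nearest to a call was a manganese peroxidase (DICSQDRAFT_173638), at -1.73 ± 0.50, adjusted p = 0.0601. The reads behind these genes are those assigned uniquely, so near-identical copies can share reads that were not counted.

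Of 13 laccases and multicopper oxidases, 2 were called, both lower (median -0.07). The Fet3 protein (DICSQDRAFT_82457), named after the yeast Saccharomyces cerevisiae multicopper ferroxidase of iron uptake, stood at 31.6 and 35.1 RPKM at day 9 and 29.6 and 31.2 at day 16 on spruce. In aspen libraries the values were 9.88 and 8.96 at day 9 and 53.7 and 71.4 at day 16 (difference -2.71 ± 0.21, adjusted p = 0.000225). All spruce libraries lay between the aspen libraries of day 9 and those of day 16. A laccase (DICSQDRAFT_67925), a copper enzyme that oxidises phenols, fell on spruce only, with 44.5 and 26.8 RPKM at day 9 and 9.24 and 9.8 at day 16 on spruce. On the other wood, aspen, it had 14.5 and 10.3 at day 9 and 12.1 and 16.8 at day 16 (difference -1.97 ± 0.39, adjusted p = 0.0208). That call was lost when aspen day 9 replicate 2, aspen day 16 replicate 2, spruce day 16 replicate 1 or spruce day 16 replicate 2 was left out (adjusted p = 0.0739, 0.0746, 0.0915 and 0.0948). Laccase B (DICSQDRAFT_110823), the most abundant laccase at day 9, stood at 2498 and 1114 RPKM at day 9 and 174 and 164 at day 16 on spruce. Aspen gave 2366 and 1531 at day 9 and 612 and 836 at day 16. It fell on both woods, and its difference of -1.84 ± 0.54, adjusted p = 0.0896 was not called. It was called by DESeq2, on all 16 libraries and without spruce day 9 replicate 2 (adjusted p from 0.000362 to 0.261 over 18 alternatives). The 11 members not called had differences of -1.84 to 1.60, and the mean of their highest group lay between 6.42 and 1949 RPKM.

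Copper radical oxidases make hydrogen peroxide from aldehydes and sugars. Of 9 copper radical oxidases, 3 were called lower and 1 higher (median -1.17). A glyoxal oxidase precursor (DICSQDRAFT_167685), which makes hydrogen peroxide from small aldehydes, stood at 2.71 and 2.77 RPKM at day 9 and 7.16 and 6.97 at day 16 on spruce. On aspen it stood at 1.99 and 1.7 at day 9 and 30.4 and 54.4 at day 16 (difference -3.0 ± 0.49, adjusted p = 0.00846). The call was lost under voom (adjusted p = 0.0736). Both aspen libraries at day 16 stood well above the other 6. The other glyoxal oxidase precursors called lower were DICSQDRAFT_104348, from 10.7 to 14.8 RPKM on spruce and from 4.61 to 16 on aspen (difference -1.17 ± 0.25, adjusted p = 0.0173), and DICSQDRAFT_135749, from 3.06 to 2.41 RPKM on spruce and from 1.56 to 3.43 on aspen (difference -1.32 ± 0.31, adjusted p = 0.0284). The call of the former was lost when aspen day 9 replicate 2, aspen day 16 replicate 1, spruce day 16 replicate 1 or spruce day 16 replicate 2 was left out (adjusted p = 0.0565, 0.0531, 0.079 and 0.0572), and that of the latter in 9 of the 18 alternatives. A galactose oxidase (DICSQDRAFT_131172) fell less on spruce, from 128 to 95.9 RPKM on spruce and from 136 to 68.1 on aspen (difference 0.74 ± 0.14, adjusted p = 0.0116), and its call was lost when aspen day 16 replicate 2, spruce day 16 replicate 1 or spruce day 16 replicate 2 was left out (adjusted p = 0.0642, 0.0572 and 0.0751).

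The list of 31 GMC oxidoreductases, a flavin enzyme family that holds the alcohol oxidases, among others, counted 8 members called higher and 2 lower (median 0.51). The 2 lower ones were abundant and rose. The alcohol oxidase DICSQDRAFT_181599, which turns simple alcohols to aldehydes with release of hydrogen peroxide, stood at 1078 and 1161 RPKM at day 9 and 7996 and 7656 at day 16 on spruce. The aspen libraries held 545 and 239.6 at day 9 and 12205 and 10118 at day 16. It rose on both woods and further on aspen (difference -1.88 ± 0.43, adjusted p = 0.026), where both libraries were the lowest at day 9 and the highest at day 16. That call was lost when aspen day 16 replicate 1, aspen day 16 replicate 2, spruce day 16 replicate 1 or spruce day 16 replicate 2 was left out (adjusted p = 0.0805, 0.0709, 0.0984 and 0.12). An alcohol oxidase-like gene (DICSQDRAFT_149587) stood at 43.6 and 65 RPKM at day 9 and 223 and 214 at day 16 on spruce. Its aspen values were 32.4 and 16.6 at day 9 and 415 and 538 at day 16 (difference -2.13 ± 0.45, adjusted p = 0.0348). The call was lost with the replicate number as a block (adjusted p = 0.0716) and when aspen day 16 replicate 1, aspen day 16 replicate 2, spruce day 9 replicate 2, spruce day 16 replicate 1 or spruce day 16 replicate 2 was left out (adjusted p = 0.0578, 0.115, 0.0551, 0.116 and 0.134). Of the 8 higher ones, GMC oxidoreductases DICSQDRAFT_161459 (difference 1.69 ± 0.15, adjusted p = 0.00037) and DICSQDRAFT_138249 (difference 1.32 ± 0.15, adjusted p = 0.00103) fell on both woods and less on spruce, from 79 to 34.6 RPKM on spruce and from 144 to 21.9 on aspen and from 119 to 66.5 RPKM on spruce and from 206 to 51.3 on aspen. An alcohol oxidase (DICSQDRAFT_102587) had no call on spruce and fell on aspen, from 22.2 to 22.6 RPKM on spruce and from 46.9 to 19.6 on aspen (difference 1.45 ± 0.18, adjusted p = 0.00131).

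Of 9 other heme peroxidases, 4 were called higher (median 0.73). A chloroperoxidase (DICSQDRAFT_72198), a heme-thiolate enzyme, stood at 115 and 85 RPKM at day 9 and 31.2 and 37.2 at day 16 on spruce. On aspen the values were 274 and 429 at day 9 and 22.9 and 21.4 at day 16 (difference 2.61 ± 0.37, adjusted p = 0.00694). It was higher in both aspen libraries at day 9 and lower in both at day 16, and its call was lost when aspen day 16 replicate 2 was left out (adjusted p = 0.0503). A chloroperoxidase-like gene (DICSQDRAFT_113070) went from 45.8 to 47.5 RPKM on spruce and from 90.8 to 42.8 on aspen (difference 1.30 ± 0.19, adjusted p = 0.00374). A heme peroxidase (DICSQDRAFT_131684) fell on both woods, from 294 to 118 RPKM on spruce and from 513 to 102 on aspen (difference 1.18 ± 0.25, adjusted p = 0.0164), and its call was lost when aspen day 16 replicate 1, aspen day 16 replicate 2, spruce day 16 replicate 1 or spruce day 16 replicate 2 was left out (adjusted p = 0.0583, 0.0655, 0.0673 and 0.0798). The DyP-type peroxidase (DICSQDRAFT_150405), by far the most abundant of these genes, stood at 11369 and 7427 RPKM at day 9 and 2467 and 2883 at day 16 on spruce. Values of the aspen libraries were 8092 and 6009 at day 9 and 3190.3 and 3448 at day 16. It fell on both woods, and its difference of -0.57 ± 0.32, adjusted p = 0.306 was not called.

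The proteasome, which degrades proteins marked with ubiquitin, had the highest share of members called in one direction among the lists with at least 10 tested genes. All 17 tested members fell on both woods, with a median change of -0.86 on spruce and -1.75 on aspen, and 15 were called higher, that is, fell less on spruce (median 0.79). The list rests on words in the descriptions, so proteasome genes described only by a fold or domain would be missing from it. Outside it, 5 of 8 genes described as N-terminal nucleophile aminohydrolase and 3 of 6 PCI-domain genes were called higher, and none lower. Whether any of these belong to the proteasome was not tested. Member means at day 9 were 58.4 to 406 RPKM (median 144) on spruce and 68.5 to 400.5 RPKM (median 158) on aspen. At day 16 they were 28.1 to 209 RPKM (median 82.6) on spruce and 26.6 to 139 RPKM (median 52.9) on aspen. Summed over the members, the level was 2651 and 2729 RPKM at day 9 and 1414 and 1447 at day 16 on spruce. On aspen the sums were 3238 and 2869 at day 9 and 1042 and 1012 at day 16. At day 16, in 16 of 17 members both spruce libraries lay above both aspen libraries. At day 9, in 11 members both aspen libraries lay above both spruce libraries. Such overlaps were not counted over all genes, so these counts describe the members only. By the test, 9 members were lower on spruce at day 9 and 9 were higher on spruce at day 16. Of all 10510 tested genes, 752 were lower on spruce at day 9 and 827 higher at day 16.

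**Figure D4:**
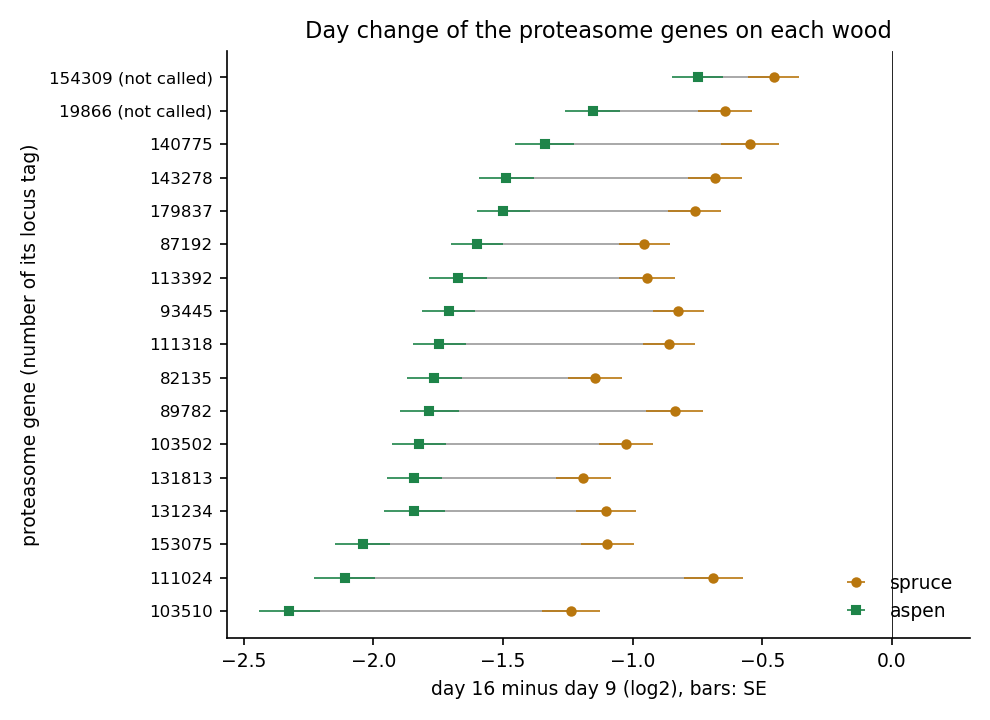
Log2 change from day 9 to day 16 of each of the 17 proteasome genes on spruce (circles) and aspen (squares), with bars of 1 standard error. Every spruce point lies to the right of its aspen point, and all lie left of zero.

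Both the catalytic core and the regulatory cap were included. A proteasome subunit (DICSQDRAFT_111024) had the widest difference, with 201 and 211 RPKM at day 9 and 121 and 133 at day 16 on spruce. The values on aspen were 304 and 304 at day 9 and 73.4 and 82.3 at day 16 (difference 1.42 ± 0.16, adjusted p = 0.000995). The beta subunit of the endopeptidase complex (DICSQDRAFT_111318), part of the core, stood at 274 and 272 RPKM at day 9 and 150.1 and 149 at day 16 on spruce. Aspen libraries had 354 and 305 at day 9 and 112 and 105 at day 16 (difference 0.89 ± 0.14, adjusted p = 0.00474). The maturation factor UMP1 (DICSQDRAFT_113392), which helps to assemble the core, was the most abundant member, with 395 and 417 RPKM at day 9 and 202 and 217 at day 16 on spruce. Levels on aspen were 427 and 374 at day 9 and 149 and 129 at day 16 (difference 0.73 ± 0.15, adjusted p = 0.0167). Rpn1 and Rpn2, the large non-ATPase subunits of the cap (DICSQDRAFT_82135 and DICSQDRAFT_131234), had differences of 0.62 ± 0.15 and 0.74 ± 0.16, and the 5 genes described as 26S proteasome subunit P45 ranged from 0.65 to 0.95. The 2 members not called were 20S subunits (DICSQDRAFT_19866, 0.51 ± 0.15, adjusted p = 0.0601, and DICSQDRAFT_154309, 0.29 ± 0.14, adjusted p = 0.218). The count of 15 fell to 7 without spruce day 16 replicate 1, spruce day 16 replicate 2 or aspen day 16 replicate 2, to 8 with limma on log2(RPKM + 1), and to 7 with 0.1 added. UMP1 itself lost its call when aspen day 16 replicate 2, spruce day 16 replicate 1 or spruce day 16 replicate 2 was left out (adjusted p = 0.0894, 0.0615 and 0.0972) and with library totals alone (adjusted p = 0.0549) or limma on log2(RPKM + 1) (adjusted p = 0.0735) or limma on log2(RPKM + 0.1) (adjusted p = 0.0735).

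A family S53 protease, a metalloprotease and an oligopeptide transporter rose steeply on aspen, with no call on spruce. Of 94 proteases and peptidases, 15 were called higher and 6 lower (median 0.04). A family S53 protease (DICSQDRAFT_182861), an acid-active serine peptidase, stood at 179.9 and 348 RPKM at day 9 and 467 and 459.8 at day 16 on spruce. In the aspen cultures it had 38.3 and 33.7 at day 9 and 887 and 1188 at day 16 (difference -3.89 ± 0.44, adjusted p = 0.00299). On spruce it was already abundant at day 9 and changed by 0.82 ± 0.30, while on aspen it changed by 4.71 ± 0.35 and ended above both spruce libraries. A metalloprotease (DICSQDRAFT_131350) stood at 89.2 and 90.8 RPKM at day 9 and 131 and 143 at day 16 on spruce. In aspen libraries the values were 39.7 and 27.5 at day 9 and 416 and 893 at day 16 (difference -3.53 ± 0.53, adjusted p = 0.0134), and its call was lost when aspen day 9 replicate 2, spruce day 9 replicate 1, spruce day 16 replicate 1 or spruce day 16 replicate 2 was left out (adjusted p = 0.0705, 0.05, 0.0648 and 0.07). An OPT oligopeptide transporter (DICSQDRAFT_155688), which takes up short peptides, stood at 81 and 71.7 RPKM at day 9 and 75.7 and 69.2 at day 16 on spruce. On the other wood, aspen, it had 27.2 and 21.6 at day 9 and 187 and 377 at day 16 (difference -3.46 ± 0.46, adjusted p = 0.00756), and its call was lost when aspen day 9 replicate 2 was left out (adjusted p = 0.0528). In all 3 genes the aspen libraries were the lowest at day 9 and the highest at day 16. An acid protease (DICSQDRAFT_126471) had the opposite difference. It fell on both woods, with 334 and 523 RPKM at day 9 and 111 and 122 at day 16 on spruce. Aspen gave 906 and 1149 at day 9 and 57.3 and 49.1 at day 16 (difference 2.55 ± 0.32, adjusted p = 0.0029), so that both aspen libraries were the highest at day 9 and the lowest at day 16. A general amino acid permease 1 gene (DICSQDRAFT_53769) rose on aspen with no call on spruce, from 213 to 268 RPKM on spruce and from 156 to 409 on aspen (difference -0.90 ± 0.18, adjusted p = 0.0139), and its call was lost when aspen day 16 replicate 2, spruce day 16 replicate 1 or spruce day 16 replicate 2 was left out (adjusted p = 0.0554, 0.0633 and 0.0861).

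Transporters were called in both directions. Of 39 peptide and amino acid transporters, 2 were called higher and 4 lower (median -0.08). An amino acid transporter (DICSQDRAFT_135366) fell on both woods and further on aspen, from 73.6 to 33.3 RPKM on spruce and from 159.9 to 38.8 on aspen (difference 1.05 ± 0.16, adjusted p = 0.00361). A dicarboxylic amino acid permease (DICSQDRAFT_49800) fell on spruce and rose on aspen, from 130.5 to 79.6 RPKM on spruce and from 56.4 to 94.8 on aspen (difference -1.32 ± 0.25, adjusted p = 0.013), and its call was lost when spruce day 16 replicate 1 was left out (adjusted p = 0.0651). Of 147 sugar and general MFS transporters, carriers of sugars and other small molecules, 5 were called higher and 9 lower, a share of 9.52% that lies near the 9.2% of all genes. The most abundant called ones were DICSQDRAFT_89882, which rose from 112 to 178 RPKM on spruce and from 78.6 to 242 on aspen (difference -0.80 ± 0.21, adjusted p = 0.038), and DICSQDRAFT_98234, which went from 91.1 to 74.4 RPKM on spruce and from 128 to 45.7 on aspen (difference 1.36 ± 0.28, adjusted p = 0.0202). Their calls were lost in 7 of the 18 alternatives, 6 of which left out 1 library (adjusted p of up to 0.154) and when aspen day 16 replicate 1, aspen day 16 replicate 2, spruce day 16 replicate 1 or spruce day 16 replicate 2 was left out (adjusted p = 0.0591, 0.0964, 0.0817 and 0.0617). Of 9 genes listed under ammonium, nitrate and urea uptake, a list that also takes in a nitrite reductase, 2 were higher and 1 lower. A cytosine-purine permease (DICSQDRAFT_96158), which imports nitrogenous bases, fell on aspen with no call on spruce, from 38.3 to 42.2 RPKM on spruce and from 72.5 to 50.4 on aspen (difference 0.83 ± 0.22, adjusted p = 0.0433), and lost its call in 10 of the 18 alternatives, 6 of which left out 1 library (adjusted p of up to 0.158). A nitrite reductase (DICSQDRAFT_182461), which makes ammonium from nitrite, fell on spruce with no call on aspen, from 22.4 to 9.12 RPKM on spruce and from 21 to 18.5 on aspen (difference -0.97 ± 0.20, adjusted p = 0.0162), and lost its call when aspen day 16 replicate 2, spruce day 16 replicate 1 or spruce day 16 replicate 2 was left out (adjusted p = 0.0636, 0.0705 and 0.082). One of 15 genes of phosphate, sulfate and metal uptake was called, an inorganic phosphate transporter (DICSQDRAFT_141593) that fell on aspen, from 81.1 to 80.2 RPKM on spruce and from 86 to 58.6 on aspen (difference 0.70 ± 0.16, adjusted p = 0.0271), and its call was lost in 9 of the 18 alternatives, 6 of which left out 1 library (adjusted p of up to 0.137).

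Among the genes with the widest higher differences, a norsolorinic acid reductase (DICSQDRAFT_66487), an aldo/keto reductase named after a step of aflatoxin synthesis in Aspergillus, stood at 666 and 732 RPKM at day 9 and 463 and 447 at day 16 on spruce. On aspen it stood at 689 and 744 at day 9 and 71.7 and 33.8 at day 16 (difference 3.31 ± 0.42, adjusted p = 0.00461). The woods overlapped at day 9, and at day 16 spruce stood above aspen by 3.05 ± 0.31 on the log2 scale. A cytochrome P450 (DICSQDRAFT_172711) stood at 214 and 205 RPKM at day 9 and 117 and 133 at day 16 on spruce. The aspen libraries held 232 and 247 at day 9 and 26.4 and 13.4 at day 16 (difference 3.0 ± 0.36, adjusted p = 0.0036). An alpha/beta-hydrolase (DICSQDRAFT_172714) stood at 85.4 and 77.8 RPKM at day 9 and 56.7 and 48.9 at day 16 on spruce. Its aspen values were 86.9 and 82.6 at day 9 and 11.1 and 6.45 at day 16 (difference 2.80 ± 0.27, adjusted p = 0.000707). These 3 genes follow each other in the reference gene order together with a second P450 (DICSQDRAFT_109788, 1.56 ± 0.17) and a HAD-like protein (DICSQDRAFT_148930, 2.11 ± 0.29), and all 5 were called higher. Their change on aspen lay between -3.92 and -2.0, and on spruce between -0.74 and 0.11.

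A second run of 5 neighbours, all called higher, held genes of sterol synthesis. It contains a pair of cytochrome P450 genes whose KEGG term is sterol 14-demethylase, an enzyme of ergosterol synthesis. The first (DICSQDRAFT_107694) stood at 329 and 347 RPKM at day 9 and 178 and 194 at day 16 on spruce. On aspen the values were 389 and 359.9 at day 9 and 74.9 and 57.9 at day 16 (difference 1.79 ± 0.18, adjusted p = 0.000712). The second (DICSQDRAFT_162100) stood at 182 and 163 RPKM at day 9 and 85.4 and 93.8 at day 16 on spruce. Values of the aspen libraries were 174 and 168 at day 9 and 30.9 and 25.2 at day 16 (difference 1.82 ± 0.17, adjusted p = 0.000373). Beside them lay a gene with the KEGG term 3-keto steroid reductase, another sterol enzyme (DICSQDRAFT_88133, 1.44 ± 0.17, adjusted p = 0.00122), and a pair without description (DICSQDRAFT_63210, 2.12 ± 0.19, and DICSQDRAFT_127802, 2.28 ± 0.31). All 5 fell on both woods and further on aspen. Over the genes with a difference of at least 2-fold, 553 could be placed in the reference order. They formed 10 runs of 3 or more neighbours of the same direction with 37 genes in all, 8 of the runs higher, and the 2 described here were the longest.

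Across the 157 cytochrome P450 genes, heme enzymes that oxidise many small molecules, 19 were called higher and 3 lower (median 0.10). The most abundant called member (DICSQDRAFT_105994) stood at 173 and 197 RPKM at day 9 and 170.2 and 209 at day 16 on spruce. The values on aspen were 405 and 531 at day 9 and 120.3 and 126 at day 16 (difference 2.13 ± 0.25, adjusted p = 0.00108). It changed by 0.05 ± 0.17 on spruce, which was not called, and fell on aspen. Of 42 terpenoid and sterol synthesis genes 4 were called higher and 1 lower (median 0.34). This share of 11.9% lies near the 9.2% of all genes. Farnesyl-diphosphate synthase (DICSQDRAFT_113606), which makes the precursor that sterols and sesquiterpenes share, fell on both woods, from 212 to 68.3 RPKM on spruce and from 331 to 59.1 on aspen (difference 1.0 ± 0.26, adjusted p = 0.0412), and its call was lost in 10 of the 18 alternatives, 6 of which left out 1 library (adjusted p of up to 0.151). A terpenoid synthase (DICSQDRAFT_87209) fell on aspen with no call on spruce, from 5.94 to 3.61 RPKM on spruce and from 16.4 to 1.4 on aspen (difference 2.97 ± 0.62, adjusted p = 0.0187), and its call was lost when aspen day 16 replicate 2, spruce day 16 replicate 1 or spruce day 16 replicate 2 was left out (adjusted p = 0.0945, 0.0657 and 0.0979). The one called lower, also a terpenoid synthase (DICSQDRAFT_63165), rose on both woods, from 22.6 to 64.2 RPKM on spruce and from 19.1 to 279 on aspen (difference -2.22 ± 0.46, adjusted p = 0.0353), and lost its call in 7 of the 18 alternatives, 6 of which left out 1 library (adjusted p of up to 0.128). Of 3 polyketide and peptide synthases, 2 were called higher. A polyketide synthase (DICSQDRAFT_155043), which builds polyketide chains, went from 51.6 to 39.2 RPKM on spruce and from 82.7 to 15.8 on aspen (difference 2.16 ± 0.32, adjusted p = 0.00573). A nonribosomal peptide synthetase (DICSQDRAFT_168339), which joins amino acids without the ribosome, rose on spruce with no call on aspen, from 11.7 to 19.1 RPKM on spruce and from 14.2 to 11.8 on aspen (difference 1.13 ± 0.24, adjusted p = 0.0176), and lost its call in 6 of the 18 alternatives, 4 of which left out 1 library (adjusted p of up to 0.0897). A short chain oxidoreductase (DICSQDRAFT_179923) had one of the lowest adjusted p-values, with 175 and 181 RPKM at day 9 and 150.2 and 182 at day 16 on spruce. Aspen libraries had 194 and 158 at day 9 and 29.1 and 23 at day 16 (difference 2.81 ± 0.20, adjusted p = 0.000156). Its change was -0.09 ± 0.13 on spruce, which was not called, and -2.90 ± 0.15 on aspen.

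Among described genes with a group mean of at least 10 RPKM, the widest higher difference was that of an FAD-binding domain gene (DICSQDRAFT_162938), with 2.03 and 2.16 RPKM at day 9 and 3.33 and 3.17 at day 16 on spruce. Levels on aspen were 14.8 and 30.5 at day 9 and 3.67 and 1.9 at day 16 (difference 3.83 ± 0.71, adjusted p = 0.0192). It fell on aspen, from well above the spruce level, with no call on spruce, and its call was lost in 5 of the 18 alternatives, all of which left out 1 library (adjusted p of up to 0.089). A gene without description (DICSQDRAFT_181999) fell on both woods, from 50.3 to 11 RPKM on spruce and from 154 to 1.86 on aspen (difference 4.33 ± 0.84, adjusted p = 0.0346), and its call was lost in 6 of the 18 alternatives, all of which left out 1 library (adjusted p of up to 0.137). Both had their highest values in the aspen libraries of day 9.

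Of 12 cation pumps and related P-type ATPases, 4 were called higher and 1 lower (median 0.46). A calcium ATPase (DICSQDRAFT_156959), which moves calcium across membranes, stood at 645 and 654 RPKM at day 9 and 280.3 and 314 at day 16 on spruce. In the aspen cultures it had 657 and 802 at day 9 and 71.7 and 48.2 at day 16 (difference 2.64 ± 0.28, adjusted p = 0.000762). The woods lay close together at day 9, and at day 16 spruce stood above aspen by 2.25 ± 0.20 on the log2 scale. A sodium-potassium ATPase (DICSQDRAFT_47382) fell on both woods, from 328 to 223 RPKM on spruce and from 166 to 57.8 on aspen (difference 1.12 ± 0.23, adjusted p = 0.0165), and its call was lost when aspen day 16 replicate 2 or spruce day 16 replicate 2 was left out (adjusted p = 0.0813 and 0.0898) and with limma on log2(RPKM + 1) (adjusted p = 0.0659) or limma on log2(RPKM + 0.1) (adjusted p = 0.0675). An aminophospholipid-transporting ATPase (DICSQDRAFT_161018), which moves phospholipids between membrane leaflets, fell on aspen with no call on spruce, from 263 to 224 RPKM on spruce and from 294 to 145 on aspen (difference 0.94 ± 0.21, adjusted p = 0.0209), and lost its call in 5 of the 18 alternatives, 3 of which left out 1 library (adjusted p of up to 0.11). The member called lower, a calcium-translocating P-type ATPase (DICSQDRAFT_52747), fell further on spruce, from 92.1 to 41 RPKM on spruce and from 44.5 to 36.2 on aspen (difference -0.71 ± 0.14, adjusted p = 0.0139), and its call was lost when spruce day 16 replicate 1 or spruce day 16 replicate 2 was left out (adjusted p = 0.0607 and 0.0972).

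In 58 called genes the test found opposite courses. Of these, 33 rose on spruce and fell on aspen and 25 did the reverse. How the calls on single woods held under the alternatives was not traced for each gene. The widest difference was that of a gene without description (DICSQDRAFT_131765), with 612 and 681 RPKM at day 9 and 1675 and 1472 at day 16 on spruce. In aspen libraries the values were 2176 and 3839.6 at day 9 and 287 and 137 at day 16 (difference 5.29 ± 0.61, adjusted p = 0.00613). It rose by 1.29 ± 0.42 on spruce (adjusted p = 0.0484) and changed by -3.99 ± 0.46 on aspen. Both aspen libraries were thus the highest at day 9 and the lowest at day 16. Among described genes, an alpha/beta-hydrolase with the KEGG term microsomal epoxide hydrolase (DICSQDRAFT_104823) went from 43.2 to 62.2 RPKM on spruce and from 87.1 to 21.8 on aspen (difference 2.68 ± 0.27, adjusted p = 0.000822). Its rise on spruce was 0.53 ± 0.19, adjusted p = 0.0435. A glycoside hydrolase with the KEGG term glucan 1,3-beta-glucosidase (DICSQDRAFT_183506), an enzyme class that acts on beta-1,3-glucan as in fungal walls, went from 25.4 to 66.9 RPKM on spruce and from 25.3 to 18.8 on aspen (difference 1.98 ± 0.23, adjusted p = 0.00103). In the reverse direction, an agmatinase (DICSQDRAFT_71040), which makes the polyamine putrescine, went from 41.3 to 17.9 RPKM on spruce and from 65.2 to 128 on aspen (difference -2.03 ± 0.35, adjusted p = 0.014), and a flavocytochrome c (DICSQDRAFT_157223) from 148 to 103 RPKM on spruce and from 54.6 to 122 on aspen (difference -1.53 ± 0.14, adjusted p = 0.00037). The described genes of this paragraph were picked after their values were seen.

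**Figure D5:**
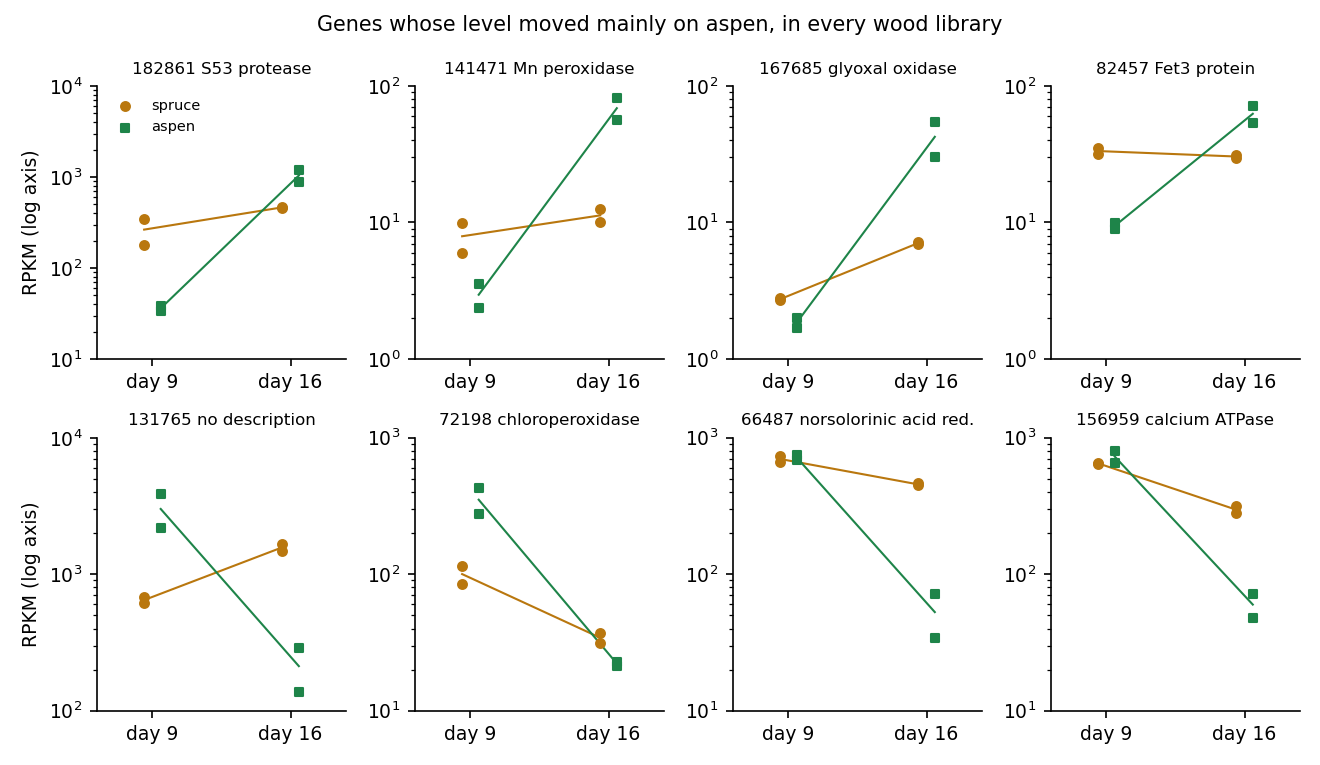
RPKM (log axis) at day 9 and day 16 of 8 genes, with 1 point per library, circles for spruce and squares for aspen, and lines through the group means. The 4 upper genes were called lower and rise steeply on aspen, and the 4 lower ones were called higher and fall steeply on aspen.

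Other genes also had a wide lower difference. A cupin of the RmlC-like fold (DICSQDRAFT_86709) stood at 7.6 and 8.7 RPKM at day 9 and 13.7 and 12.9 at day 16 on spruce. On the other wood, aspen, it had 7.68 and 6.92 at day 9 and 98.6 and 86 at day 16 (difference -2.79 ± 0.19, adjusted p = 0.000156), with the woods overlapping at day 9 and both aspen libraries highest at day 16. An acetoin reductase family gene (DICSQDRAFT_157940) rose on both woods, from higher levels on spruce at day 9, with 67.7 and 30.8 RPKM at day 9 and 1279 and 1158 at day 16 on spruce. Aspen gave 6.38 and 4.39 at day 9 and 1509 and 1973 at day 16 (difference -3.55 ± 0.54, adjusted p = 0.0111), and its call was lost when aspen day 9 replicate 2, aspen day 16 replicate 2 or spruce day 16 replicate 2 was left out (adjusted p = 0.075, 0.0548 and 0.0633). A photo-regulated tyrosinase (DICSQDRAFT_102354), a copper enzyme that oxidises phenols towards melanin, fell on spruce with no call on aspen, with 726 and 393 RPKM at day 9 and 90.7 and 107 at day 16 on spruce. On aspen it stood at 248 and 125 at day 9 and 327 and 389 at day 16 (difference -3.30 ± 0.54, adjusted p = 0.0167), and its call was lost when aspen day 16 replicate 2, spruce day 16 replicate 1 or spruce day 16 replicate 2 was left out (adjusted p = 0.0756, 0.0721 and 0.0717). A GroES-like gene (DICSQDRAFT_59500), with the KEGG term butanediol dehydrogenase, rose on both woods, from higher levels on spruce at day 9, with 52.5 and 21.6 RPKM at day 9 and 516 and 515 at day 16 on spruce. The aspen libraries held 7.4 and 5.63 at day 9 and 781 and 900.5 at day 16 (difference -3.06 ± 0.56, adjusted p = 0.0246), and its call was lost in 6 of the 18 alternatives, all of which left out 1 library (adjusted p of up to 0.119). A methyltransferase that uses S-adenosylmethionine (DICSQDRAFT_155746) rose on aspen with no call on spruce, from 136 to 88.8 RPKM on spruce and from 29.4 to 151 on aspen (difference -2.85 ± 0.57, adjusted p = 0.0393), and lost its call in 7 of the 18 alternatives, 6 of which left out 1 library (adjusted p of up to 0.143). An alpha/beta-hydrolase (DICSQDRAFT_164545) rose on both woods, with 7.53 and 12.1 RPKM at day 9 and 30.6 and 21 at day 16 on spruce. Its aspen values were 5.92 and 3.49 at day 9 and 79.6 and 86.3 at day 16 (difference -2.60 ± 0.42, adjusted p = 0.0101), and both aspen libraries were the highest at day 16. A ricin B-like lectin (DICSQDRAFT_172724), a sugar-binding protein, was very abundant on aspen at day 16, with 409.6 and 477 RPKM at day 9 and 942 and 797 at day 16 on spruce. On aspen the values were 485 and 509.8 at day 9 and 3036 and 4128 at day 16 (difference -1.72 ± 0.25, adjusted p = 0.00325). Of the genes without description, DICSQDRAFT_170198 and DICSQDRAFT_124135 had the widest differences, -7.92 ± 1.25 and -7.20 ± 0.71. The latter stood at 44.2 and 58.2 RPKM at day 9 and 20.6 and 22.8 at day 16 on spruce. Values of the aspen libraries were 3.78 and 3.54 at day 9 and 149.8 and 358 at day 16. The former stood at 57.3 and 19.8 RPKM at day 9 and 22.4 and 23 at day 16 on spruce. The values on aspen were 0.683 and 0 at day 9 and 47.7 and 82 at day 16, so that its log2 difference rests on very few reads on aspen at day 9, and its call was lost when aspen day 9 replicate 2 or spruce day 16 replicate 2 was left out (adjusted p = 0.0586 and 0.0544).

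Several lists had no called member at this number of libraries. None of 81 ribosomal protein genes was called (median 0.08, range -0.73 to 0.45), none of 42 heat shock proteins and chaperones (0.38), none of 14 citric acid cycle genes (0.25), none of 14 hydrophobins (0.26), none of 16 glutathione S-transferases (-0.15), none of 16 fatty acid oxidation genes (-0.21) and none of 5 genes of the glyoxylate cycle and gluconeogenesis (-0.17). In that order, an unadjusted p below 0.05 was reached by 7, 15, 5, 3, 0, 4 and 1 genes, and DESeq2 called 0, 1, 0, 3, 0, 1 and 1. Related genes outside these word lists were called. A prefoldin subunit 4 gene (DICSQDRAFT_144089), part of a chaperone, fell on spruce and rose on aspen (difference -0.96 ± 0.21, adjusted p = 0.0215). So did an undescribed gene with the KEGG term glutathione S-transferase (DICSQDRAFT_100284, -1.18 ± 0.22, adjusted p = 0.00943). Their calls held in 14 and 17 of the 18 alternatives. Of 38 genes listed under glycolysis, a list that also takes in an alcohol dehydrogenase, 4 were higher and 2 lower (median 0.19). A glucose-6-phosphate isomerase (DICSQDRAFT_183613), the second enzyme of glycolysis, fell on both woods, from 295 to 104 RPKM on spruce and from 326 to 78.4 on aspen (difference 0.71 ± 0.17, adjusted p = 0.0266), and lost its call in 8 of the 18 alternatives, 5 of which left out 1 library (adjusted p of up to 0.143). An alcohol dehydrogenase (DICSQDRAFT_136849) rose on both woods, from 105 to 281 RPKM on spruce and from 78.9 to 362 on aspen (difference -0.62 ± 0.16, adjusted p = 0.0406), and lost its call in 6 of the 18 alternatives, all of which left out 1 library (adjusted p of up to 0.181). Of 26 chitin and fungal wall enzymes 2 were higher and 1 lower (11.5%, against 9.2% of all genes). The higher ones were a glycoside hydrolase family 18 gene (DICSQDRAFT_104474), the family of fungal chitinases, which rose on spruce only, from 47.3 to 104 RPKM on spruce and from 70.4 to 66.5 on aspen (difference 1.38 ± 0.19, adjusted p = 0.0028), and a beta-hexosaminidase (DICSQDRAFT_170494), which releases N-acetylglucosamine from chitin fragments and fell on aspen only, from 30.2 to 29.1 RPKM on spruce and from 89 to 24.2 on aspen (difference 2.0 ± 0.28, adjusted p = 0.0041). The lower one, an exo-beta-1,3-glucanase (DICSQDRAFT_49107), rose on aspen with no call on spruce, from 24.5 to 26.2 RPKM on spruce and from 21 to 43.5 on aspen (difference -0.79 ± 0.20, adjusted p = 0.0367), and lost its call in 5 of the 18 alternatives, all of which left out 1 library (adjusted p of up to 0.143).

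The remaining lists are given with the share of their tested genes that was called, beside the 9.2% of all genes. Of 31 lipases and esterases 2 were higher and 3 lower (16.1%). A lipase (DICSQDRAFT_71343), which splits fats, rose on both woods and further on aspen, from 158 to 327 RPKM on spruce and from 124 to 476 on aspen (difference -0.74 ± 0.16, adjusted p = 0.0208), and lost its call when aspen day 16 replicate 2, spruce day 16 replicate 1 or spruce day 16 replicate 2 was left out (adjusted p = 0.0749, 0.103 and 0.0961). An extracellular triacylglycerol lipase precursor (DICSQDRAFT_137620) did likewise, from 14.4 to 121 RPKM on spruce and from 7.46 to 279 on aspen (difference -1.99 ± 0.37, adjusted p = 0.0174), and lost its call in 5 of the 18 alternatives, all of which left out 1 library (adjusted p of up to 0.0908). Of 25 antioxidant enzymes 3 were called, all higher (12%). A glutathione peroxidase-like gene (DICSQDRAFT_80798), which reduces peroxides, fell on aspen with no call on spruce, from 268 to 239 RPKM on spruce and from 299.6 to 166 on aspen (difference 0.85 ± 0.15, adjusted p = 0.00908), and lost its call when aspen day 16 replicate 2 or spruce day 16 replicate 2 was left out (adjusted p = 0.0541 and 0.0629). A thioredoxin-like gene (DICSQDRAFT_85370) fell on both woods, from 248 to 141 RPKM on spruce and from 210.0 to 85.4 on aspen (difference 0.64 ± 0.16, adjusted p = 0.0336), and lost its call in 9 of the 18 alternatives, 6 of which left out 1 library (adjusted p of up to 0.154). Of 10 oxalate and formate enzymes 1 was called (10%), an NAD-dependent formate dehydrogenase (DICSQDRAFT_51840), which oxidises formate to carbon dioxide. It was abundant and rose on both woods, from 2195 to 4119.9 RPKM on spruce and from 1066 to 4072 on aspen (difference -0.87 ± 0.22, adjusted p = 0.0369), starting lower on aspen, and its call was lost in 6 of the 18 alternatives, all of which left out 1 library (adjusted p of up to 0.162). Among 48 aldo/keto and aryl-alcohol reductases 5 were higher and 1 lower (12.5%), led in abundance by the norsolorinic acid reductase and by an aldo/keto reductase (DICSQDRAFT_107317) that rose on spruce and fell on aspen, from 277 to 411 RPKM on spruce and from 236 to 202 on aspen (difference 0.96 ± 0.17, adjusted p = 0.00909). That call was lost when aspen day 16 replicate 2 or spruce day 16 replicate 1 was left out (adjusted p = 0.0541 and 0.056). Of 13 genes listed as mating and fruiting proteins, a list that also takes in lectins, 2 were called (15.4%), both lectins by description. One was higher, a concanavalin A-like lectin/glucanase (DICSQDRAFT_65029) that fell on both woods, from 115 to 19.7 RPKM on spruce and from 258 to 16.5 on aspen (difference 1.58 ± 0.31, adjusted p = 0.0182), and lost its call when aspen day 16 replicate 1, aspen day 16 replicate 2 or spruce day 16 replicate 2 was left out (adjusted p = 0.0694, 0.0802 and 0.0812). The other, the ricin B-like lectin, was lower. A galactokinase (DICSQDRAFT_66728), which phosphorylates galactose, was the only one called of 8 genes of pentose and mannitol catabolism and related sugars (12.5%), at 0.72 ± 0.19, adjusted p = 0.0429, and lost its call in 12 of the 18 alternatives, 7 of which left out 1 library (adjusted p of up to 0.164). The catalytic subunit of DNA polymerase alpha (DICSQDRAFT_101157) was the only one called of 26 genes of DNA replication and histones (3.85%), at -0.92 ± 0.25, adjusted p = 0.045, and lost its call in 8 of the 18 alternatives, 6 of which left out 1 library (adjusted p of up to 0.181).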

How the data were processed

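Of the RNA-seq libraries, the 8 from wood (spruce and aspen, day 9 and day 16, 2 each) were analysed. The deposited count is the number of unique reads per gene model, and the deposited RPKM was made by the authors from these reads, the model length and the library total, per the file headers. The aligner is not given in the sources used here, nor are the build and the use of strand. Genes absent from a library's file were taken as 0 reads. Reads were tested with edgeR 4.0.16 (R 4.3.3; TMM scaling, filterByExpr with a minimum count of 10 and a minimum total of 15, 1 mean per group, robust quasi-likelihood F-test). The filter kept 10510 genes and left out 874, and 4 residual degrees of freedom remained with a common biological coefficient of variation of 0.127. P-values were adjusted by Benjamini-Hochberg over all tested genes. A standard error is the log2 difference divided by the root of F.

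The study has 2 time points per wood, so a course is a single change. Members and gene lists (word searches in the descriptions) were chosen with earlier results of these data known. Named genes are, among those called with a group mean of at least 10 RPKM, the 12 widest described and the 2 widest undescribed differences per direction, the 2 most abundant called members of each list, and all cellobiohydrolases, monooxygenases, class II peroxidases, laccases and mannanases; others are members of a list, of a run of neighbours or of the genes with opposite courses. The alternatives were DESeq2 1.42.0, its size factors, library totals alone, no filter, a minimum count of 50, all 16 libraries, a replicate block, limma 3.58.1 with voom, limma on log2(RPKM + 1) and on log2(RPKM + 0.1), and leaving out each library. The scripts were tested on simulated counts with known changes and a coefficient of variation of 0.1 in every gene and group. The data had a common value of 0.127 and unequal spreads between groups, so the simulation does not measure error rates in these data. Gene order came from the RefSeq locus tags, without scaffold positions, so a run may join neighbours across a scaffold end. Promoter sequences were not analysed here.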

Additional observations from a re-analysis of the deposited data

Results flagged for a closer look

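The day effect differed between spruce and aspen in 967 genes by a test of the difference itself (edgeR's quasi-likelihood test, adjusted p below 0.05), and these genes are the subject of the comparison. Of the genes named by the fixed rule, a pair had day changes that were called in opposite directions on the woods. DICSQDRAFT_131765, without description, rose on spruce and fell on aspen, with a difference of 5.29 on the log2 scale. DICSQDRAFT_107317, an aldo/keto reductase, did likewise, with a difference of 0.96. Its values were 267 and 287 RPKM on spruce at day 9, 441 and 381 on spruce at day 16, 232 and 241 on aspen at day 9 and 212 and 193 on aspen at day 16. Groups of 2 libraries cannot be tested for an outlying sample.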

How the results depend on the processing

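Of the 102 genes named by the rule, 82 were called. All 82 kept their direction, and 33 their call, in every one of the 18 alternatives that gave them an adjusted p. The lignin peroxidase DICSQDRAFT_108150 had 17, since a minimum count of 50 left it out. Of the 967 calls, 554 were made under all of the 10 alternatives that keep every wood library and gave an adjusted p, and 285 also whenever a library was left out. With each library left out in turn, the day effect on spruce minus day effect on aspen was called in 335 to 1083 genes, day 16 against day 9 on spruce in 2822 to 4633, spruce against aspen on day 9 in 457 to 1217 and on day 16 in 343 to 1674, and the count of proteasome members called higher was 7 to 15. In these fits the lone library of a group is assumed to vary like the others, and fewer libraries give fewer residual degrees of freedom. On all 16 libraries, day effect on spruce minus day effect on aspen was called in 2013 genes, spruce against aspen on day 9 in 2266 and spruce against aspen on day 16 in 2483, in a fit with more residual degrees of freedom. With library size alone 1896 genes differed between the woods on day 9, and with voom 2160 on day 16; the cause was not tested. For the proteasome, members called higher numbered 8 on log2(RPKM + 1) and 7 on log2(RPKM + 0.1), a fit without read counts; the cause was not tested. These RPKM fits called 785 and 745 genes, and their share of higher calls was 49.2% and 49.9%, against 64.7% of the 967; the median of all genes was -0.13 and -0.14 in them.

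Libraries of the same number deviated together between the day 9 groups only, and the number was not taken as a pairing. The differences between replicates 1 and 2 correlated across genes by 0.361 between the day 9 groups of the woods and by -0.0565 to 0.0296 between all other groups. With the number as a replicate block, 1119 genes were called.

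The sign of 4 named genes, none of them called, changed. For DICSQDRAFT_150431 the difference was 0.022 with voom and -0.279 to 0.319 with a library left out. For DICSQDRAFT_169869 it was -0.142 with library size alone, -0.033 with a minimum count of 50, -0.032 on all 16 libraries, -0.039 with voom, -0.185 and -0.196 on RPKM, and -0.669 to 0.5 with a library left out. For DICSQDRAFT_177001 it was -0.381 to 0.163 with a library left out. For DICSQDRAFT_180464 it was -0.145 with library size alone, -0.022 with a minimum count of 50, -0.02 on all 16 libraries, -0.096 and -0.14 on RPKM, and -0.111 to 0.107 with a library left out. The causes were not tested. The 2 libraries of a group limit every count given here.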

Other observations

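Some genes without a description carry a KEGG term of a polysaccharide-degrading glycosidase. The group was put together after the values were seen, and its counts are a description. Of 22 such genes tested, 6 were called higher and 2 lower, with a median log2 difference of 0.21. A gene with the term endoglucanase (DICSQDRAFT_104462) stood at 16.4 and 16.6 RPKM at day 9 and 169 and 194 at day 16 on spruce. The aspen libraries held 16 and 11.3 at day 9 and 40.8 and 30.5 at day 16 (difference 2.23 ± 0.23, adjusted p = 0.000762, edgeR's quasi-likelihood test). The day 16 spruce libraries lay above all others, as in the described endoglucanases that were called. A pair with the term endo-1,4-beta-xylanase had differences of opposite sign. DICSQDRAFT_61429 stood at 4.57 and 3.92 RPKM at day 9 and 105 and 103 at day 16 on spruce. Its aspen values were 1.8 and 1.73 at day 9 and 14.4 and 9.12 at day 16 (difference 2.04 ± 0.37, adjusted p = 0.00852). DICSQDRAFT_63786 stood at 6.66 and 8.52 RPKM at day 9 and 153 and 194 at day 16 on spruce. On aspen the values were 2.85 and 1.56 at day 9 and 191 and 239 at day 16 (difference -1.94 ± 0.35, adjusted p = 0.011), and its call was lost with voom (adjusted p = 0.0549). A gene with the term beta-galactosidase (DICSQDRAFT_183873) rose on spruce with no call on aspen, from 144 to 438 RPKM on spruce and from 233 to 248 on aspen (difference 1.66 ± 0.26, adjusted p = 0.00441). A pair with the term galacturan 1,4-alpha-galacturonidase also parted, at 1.12 ± 0.29, adjusted p = 0.0373 for DICSQDRAFT_127518 and -1.09 ± 0.29, adjusted p = 0.0491 for DICSQDRAFT_59235, with calls lost in 10 and 9 of the 18 alternatives.

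Descriptions shared by at least 5 tested genes were also counted, after the values were seen. Of all tested genes, 9.2% were called. Of 18 subtilisin-like proteins, serine peptidases, 5 were called higher and none lower (median 0.58). Of 32 acid proteases, 5 were higher and 3 lower (median 0.11). Of 7 kinesin-domain genes, motors that move along microtubules, 3 were called lower and none higher (median -0.64). Of 6 G-alpha-domain genes, subunits of the G proteins that pass on receptor signals, 3 were higher and 1 lower (median 0.54). Of 62 kinase-like proteins 2 were higher and 4 lower (median -0.12), a share of 9.68% that lies near that of all genes. Of the 967 called genes, 524 had no informative description (54.2%, against 58.6% of all tested genes).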
